A study of Mus musculus with 12 samples.

Results

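The signalling lymphocytic activation molecule (SLAM) family is a group of immunoglobulin-like receptors on the surface of blood cells. Its 8 members described here, Slamf8, Slamf9, Slamf1, Slamf6, Slamf7, Cd84, Ly9 and Cd48, were found by matching the Ensembl gene IDs of the deposited count table to these symbols. All 8 were present among the 56923 IDs of the table, and the annotation places all 8 on chromosome 1. Most SLAM receptors bind the same receptor on a neighbouring cell and signal through short adaptor proteins, SAP (Sh2d1a) and EAT-2 (Sh2d1b1), that recognise tyrosine motifs in their tails. Slamf8 and Slamf9 have short tails without these motifs and are found mainly on macrophages and related myeloid cells, where Slamf8 is known to restrain the phagocyte NADPH oxidase. In the liver, the cells that carry the family are the resident macrophages (Kupffer cells), infiltrating myeloid cells and lymphocytes, and not the hepatocytes.

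RNA was extracted from whole liver of 12 wild-type C57BL/6J mice, 3 in each of 4 groups, and 1 library was made per mouse. Mice were 6 weeks old when the study began and all had the same injury: 200 µL of 7.5% carbon tetrachloride (CCl4) in olive oil, injected into the peritoneum 2 times a week over 6 weeks, which scars the liver. The control group had CCl4 alone, while the low, medium and high groups also had curcumin, a polyphenol of turmeric, by daily gavage at 25, 50 and 100 mg/kg for 2 weeks. The sources used here do not say whether controls had a gavage without curcumin, and no group without CCl4 was part of the comparisons. Mice were housed 3 to a cage, and which cages held which group is not stated. The series title names Slamf8 and TNF/NF-kB signalling, so the question addressed here is how the counts of Slamf8, its relatives and the genes around them differed between CCl4 alone and each dose.

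The promoters of Slamf8 and Cd48, the members with the lowest unadjusted p-values of the family at the medium and the low dose, are shown because the title links Slamf8 to NF-kB. They are RefSeq sequences of build GRCm38.p6, from 250 bases before to 50 bases after the start of the gene, printed 5′ to 3′ on the strand of the gene. Capitals mark matches to the motifs searched, on either strand.
Slamf8: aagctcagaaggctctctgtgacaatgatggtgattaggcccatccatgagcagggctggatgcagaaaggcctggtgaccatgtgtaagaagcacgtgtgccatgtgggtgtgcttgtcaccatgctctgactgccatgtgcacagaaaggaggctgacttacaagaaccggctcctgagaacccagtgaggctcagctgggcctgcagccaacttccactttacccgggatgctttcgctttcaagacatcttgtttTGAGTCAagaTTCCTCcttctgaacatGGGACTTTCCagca
Cd48: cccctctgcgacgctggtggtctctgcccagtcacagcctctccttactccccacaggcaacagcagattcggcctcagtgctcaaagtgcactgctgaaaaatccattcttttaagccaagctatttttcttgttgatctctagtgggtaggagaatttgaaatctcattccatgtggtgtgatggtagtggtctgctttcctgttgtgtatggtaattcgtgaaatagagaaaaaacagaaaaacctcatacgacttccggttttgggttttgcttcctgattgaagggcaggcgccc
The Slamf8 window is chr1:172590519-172590818 on the minus strand, and the Cd48 window is chr1:171681742-171682041 on the plus strand. In the Slamf8 window the first run of capitals is a match to the AP-1 motif TGANTCA, which begins 9 bases after the start. The next is a match to the PU.1 core GAGGAA on the other strand, beginning 19 bases after the start. The last is a match to the NF-kB motif (GGG, then a purine, any 2 bases, 2 pyrimidines and CC), which begins 36 bases after the start. No match to these motifs or to the ETS-IRF composite motif was in the Cd48 window.

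Promoters of 7 of the 8 members were matched in the RefSeq table. Slamf8 was the only one of the 7 with an NF-kB match, a motif present in 8.46% of 32851 promoters of the same length. A PU.1 core was in 3 of the 7 (Slamf8, Slamf9 and Cd84) and in 28.3% of all promoters. An AP-1 motif was in 3 of the 7 (Slamf8, Slamf7 and Cd84) and in 7.81% of all, and the ETS-IRF composite was in 0 of the 7 and in 2.72% of all. The motifs were chosen with earlier results known, can overlap one another by chance, and a match is a stretch of letters and not a measured binding site.

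Counts of the family were low, and the libraries differed much in the depth left for such genes. Library totals ran from 36015134 to 70376474 counts. Mitochondrially encoded transcripts took 30.3% of counts in high replicate 1 and up to 64.7% in high replicate 2. Once these and 11 nearly identical nuclear copies were set aside, 5180318 counts remained in low replicate 1 and 36377767 in high replicate 1. Folds were therefore taken from counts scaled by edgeR's TMM factors, and raw counts are to be read beside the depth of their library. Among values listed for genes expressed in the other libraries (a median of at least 20 counts there), 632 of 163062 were 0, and low whole numbers were rare in long genes (1 or 2 made up 10.4% of values from 1 to 9 in genes with at least 2000 bases of exons, against 47.6% in genes under 1000 bases). Whether the deposited values are direct read counts was not tested, and no counting intervals are given. A 0 is given as listed. No fold is given for Slamf1, which was listed at 0 in a whole group, and the folds of Slamf8 at the medium dose and of Slamf9 at the low and medium doses are also given without the library listed at 0. Marker lists matched the labelled tissue: 10 of 10 hepatocyte genes had counts in every group and summed to between 6026 and 49370 CPM (counts per 1000000, TMM-scaled).

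**Figure D1:**
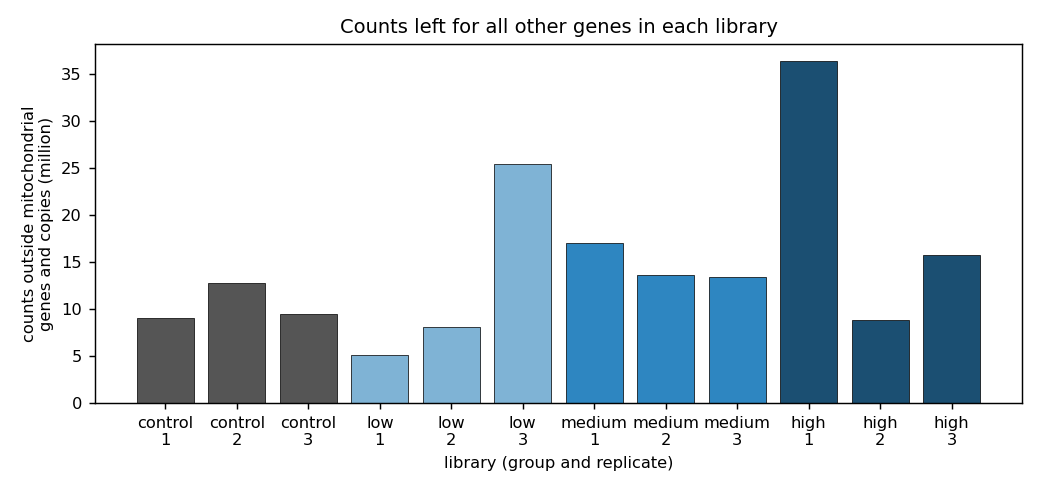
Bars show the counts left in each of the 12 libraries after mitochondrially encoded genes and their nuclear copies were set aside; the x axis gives group and replicate. High replicate 1 holds 36377767 such counts and low replicate 1 holds 5180318.

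The order of the members by level was led by Cd48. Levels between genes were compared as TMM-scaled CPM per kilobase of annotated exons, over all 12 libraries. Cd48 had 1.05 ± 0.563 (SD, n = 12), and its lowest library, at 0.613, was above the highest library of every other member. Cd84 followed at 0.270 ± 0.0828, Slamf9 at 0.247 ± 0.143, Ly9 at 0.193 ± 0.0768 and Slamf8 at 0.114 ± 0.0812. Slamf7 at 0.0652 ± 0.0311, Slamf6 at 0.0594 ± 0.0369 and Slamf1 at 0.0114 ± 0.0165 were lowest. Below Cd48, neighbours in this order overlapped in their ranges over the libraries, and the order differed between groups. At the high dose Slamf9 (0.375 ± 0.0971, n = 3) stood above Cd84 (0.276 ± 0.0731), at the medium dose Ly9 (0.168 ± 0.0193) above Slamf9 (0.134 ± 0.117), and in the controls Slamf6 (0.0895 ± 0.0599) above Slamf7 (0.0527 ± 0.0463). When the length of the longest coding transcript was used, Ly9 (0.257) stood above Slamf9 (0.247) and Slamf6 (0.112) above Slamf7 (0.0751), and the highest library of Cd84 (0.689) exceeded the lowest of Cd48 (0.615).

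Across the family, most fitted values were below control at every dose, and no member passed the test. By edgeR's quasi-likelihood test with Benjamini-Hochberg adjustment over 16839 genes, 0 of 8 members were called at an adjusted p of 0.05 at the low, medium or high dose, for the mean of the doses, for the slope on dose or for differences among the doses. The share of all genes called in each of these 6 comparisons was 0%. DESeq2 and limma also called 0 of 8 in each comparison, with no adjusted p from DESeq2 for Slamf1 in the high, mean, slope and among-dose comparisons. The 3 dose comparisons and their mean share the same 3 control libraries.

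At an unadjusted p of 0.05, edgeR counted 1 of 7 members as lower at the low dose (Cd48), with Slamf1 left out because it was listed at 0 in every high library, where 3.5% of all genes were lower by that rule. The count was 1 at the medium dose (Slamf8, against 2.99% of genes), 1 at the high dose (Slamf6, against 4.91%) and 2 for the mean of the doses (Slamf8 and Cd48, against 5.24%). For the slope on dose it was 1 (Slamf6, against 4.49%), and for differences among the doses 0 (against 3.65% of genes in any direction). Without control replicate 2, edgeR counted 0 of these 7 members at an unadjusted p of 0.05 in all 6 comparisons. That fit had 1 control fewer, and fewer genes met the rule. For the mean of the doses 442 of 17468 genes were lower without that library, against 882 of 16839 with it. Control replicate 2 had the highest summed level of 6 of the 7 leukocyte lists (pan-leukocyte, Kupffer, T and NK, B and plasma, neutrophil and dendritic), and the members' values without it are given below.

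Of the same 7 members, 6 were fitted below control at the low dose, 6 at the medium dose, 5 at the high dose and 6 for the mean of the doses. Of all genes tested, 48.9%, 48%, 47.8% and 49.1% were below control in these comparisons. The median log2 fold change of the 7 was -0.55 at the low dose, -0.55 at the medium dose, -0.23 at the high dose and -0.39 for the mean, where the medians of all genes were 0.01, 0.02, 0.03 and 0.01. Without control replicate 2 these medians of the 7 were -0.12, -0.01, -0.10 and -0.24, all nearer to 0 than with that library. The medians of all genes were then 0.03, 0.04, 0.07 and 0.03. Of the 7 members, 5, 4, 4 and 5 were then below control. The plot of fitted changes by dose shows that Slamf8, Cd48 and Slamf6 were below 0 at all 3 doses.

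**Figure D2:**
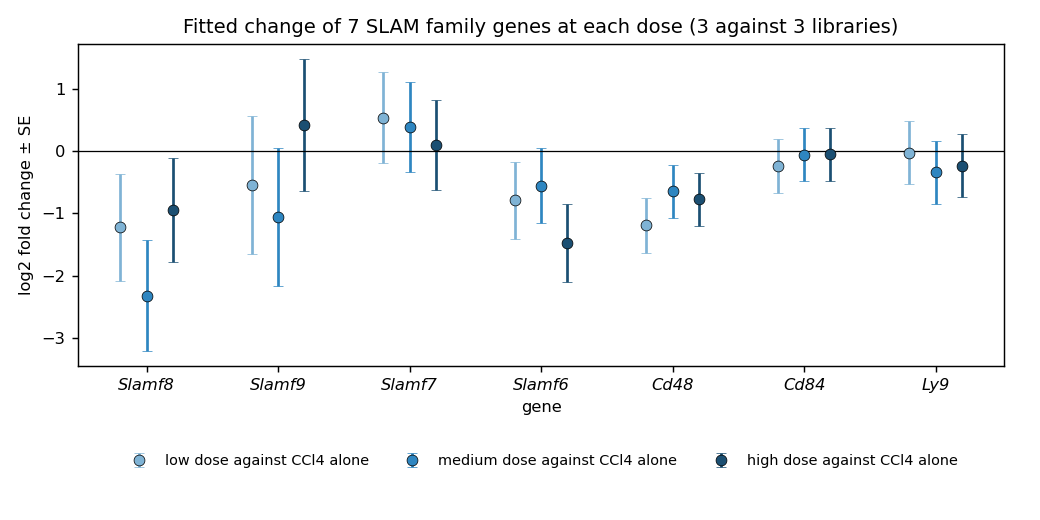
Points show edgeR's log2 fold change against CCl4 alone and bars its standard error, for 7 members at the low, medium and high dose (3 libraries against 3). Slamf8 at the medium dose is lowest, at -2.32, and Slamf7 lies above 0 at all 3 doses. Slamf1 is not plotted.

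Slamf8, the myeloid receptor named in the title, had counts of 33, 54 and 14 in the control libraries (replicates 1, 2 and 3). Its counts were 6, 12 and 24 at the low dose, 0, 10 and 15 at the medium dose and 35, 21 and 13 at the high dose. In raw counts the groups overlapped at every dose, and medium replicate 1 was the one library listed at 0.

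Scaled for depth, Slamf8 was at 0.830, 0.816 and 0.312 CPM in the controls. It was at 0.234, 0.335 and 0.265 CPM at the low dose and at 0, 0.153 and 0.234 CPM at the medium dose. At the high dose it was at 0.324, 0.493 and 0.206 CPM. All 3 medium libraries were below all 3 controls, whereas at the low and high doses control replicate 3 lay within the range of the treated libraries.

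The fitted log2 fold change of Slamf8 was -1.22 ± 0.86 (SE) at the low dose (edgeR, adjusted p = 0.860), -2.32 ± 0.89 at the medium dose (adjusted p = 0.791) and -0.94 ± 0.84 at the high dose (adjusted p = 0.626). For the mean of the doses it was -1.50 ± 0.65 (edgeR, adjusted p = 0.515). The medium value was -2.37 by DESeq2 (adjusted p = 0.241) and -2.44 by limma (adjusted p = 0.236). Without medium replicate 1, the library listed at 0, it was -1.74 (edgeR, adjusted p = 1.00), and the mean of the doses was -1.30. With control replicate 2 left out, Slamf8 was at -1.03 at the low dose, -2.12 at the medium dose, -0.75 at the high dose and -1.30 for the mean. With control replicate 3 left out, its mean of the doses was -1.83. The doses did not follow an order: the slope over 100 mg/kg was -0.84 ± 0.80 (edgeR, adjusted p = 0.675), and the test among the doses gave an adjusted p of 0.986.

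Slamf9, which shares the short tail and myeloid expression of Slamf8, was even across the controls, with counts of 17, 20 and 17. It had counts of 13, 0 and 24 at the low dose, 18, 0 and 16 at the medium dose and 65, 15 and 33 at the high dose. The libraries listed at 0 were low replicate 2 and medium replicate 2, between others of the same group with 13 counts or more. Scaled for depth, all 3 medium libraries (0, 0.249 and 0.279 CPM) were below the controls (0.302 to 0.428 CPM), and the high libraries (0.352 to 0.602 CPM) overlapped them. The fitted log2 fold change was -1.06 ± 1.11 at the medium dose (edgeR, adjusted p = 0.997) and 0.42 ± 1.07 at the high dose (adjusted p = 0.885), and the test among the doses gave an adjusted p of 0.986. Slamf9 for the mean of the doses stood at -0.39 ± 0.87 (edgeR, adjusted p = 0.900). With control replicate 2 left out, Slamf9 was at -0.68 at the low dose, -1.19 at the medium dose, 0.29 at the high dose and -0.52 for the mean. Without medium replicate 2, its value was -0.49 at the medium dose and -0.20 for the mean, and without low replicate 2 it was -0.20 for the mean and 0.03 at the low dose, where all libraries gave -0.55.

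Counting members whose scaled levels did not overlap with control, all in the lower direction, gave 1 of 8 at the low dose (Cd48), where 6.36% of all genes met that rule. It gave 2 of 8 at the medium dose (Slamf8 and Slamf9, against 6.38% of genes), 0 of 8 at the high dose (against 6.52%) and 0 of 8 for all 9 treated libraries (against 1.2%). The plot of raw counts shows the values of each library behind these comparisons.

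**Figure D3:**
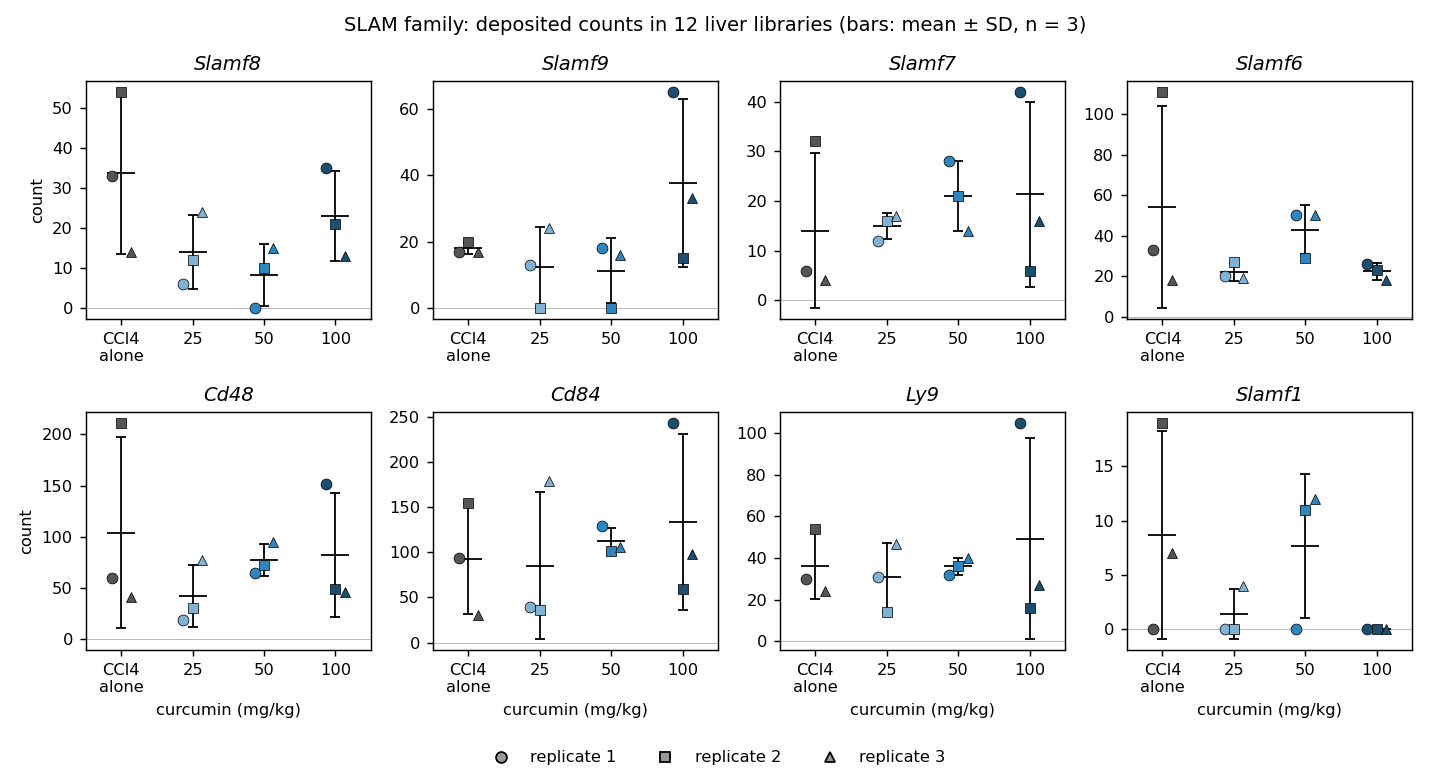
Deposited counts of the 8 members in each library (symbols mark the replicate), by curcumin dose in mg/kg, with the group mean and SD as a horizontal line and bar (n = 3). Slamf8 lies between 0 and 54 counts in all 12 libraries, and control replicate 2 holds the highest count of Slamf6 (111) and Cd48 (211).

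Cd48, a lipid-anchored surface protein that serves as the ligand of Cd244a and Cd2, had the lowest p of the family at the low dose. Its counts were 60, 211 and 41 in the controls, 19, 31 and 77 at the low dose, 65, 73 and 95 at the medium dose and 152, 49 and 46 at the high dose. In CPM the controls were at 1.51, 3.19 and 0.914 and the low libraries at 0.741, 0.866 and 0.849, so that the low group lay below all controls within a narrow range. The medium libraries (1.01 to 1.48 CPM) and the high libraries (0.729 to 1.41 CPM) overlapped the controls.

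The fitted log2 fold change of Cd48 was -1.19 ± 0.44 at the low dose (edgeR, adjusted p = 0.800), -0.65 ± 0.43 at the medium dose (adjusted p = 0.997) and -0.77 ± 0.43 at the high dose (adjusted p = 0.442). For the mean of the doses it was -0.87 ± 0.34 (edgeR, adjusted p = 0.458). The size of these values depended on single control libraries. Without control replicate 2 Cd48 stood at -0.56 at the low dose, -0.01 at the medium dose, -0.14 at the high dose and -0.24 for the mean by edgeR. Without control replicate 3 it stood at -1.52, -0.97, -1.10 and -1.20 in the same order. Without control replicate 1 it was at -1.33 at the low dose and -1.01 for the mean. Among the doses Cd48 had an adjusted p of 0.986.

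Slamf6, a self-binding receptor of T, B and natural killer (NK) cells, had counts of 33, 111 and 18 in the controls. It had 20, 27 and 19 counts at the low dose, 50, 29 and 50 at the medium dose and 26, 23 and 18 at the high dose. In CPM the controls were at 0.830, 1.68 and 0.401 and the high libraries at 0.241, 0.540 and 0.285, so that 2 of 3 high libraries were below every control. The fitted log2 fold change of Slamf6 was -0.79 ± 0.62 at the low dose, -0.55 ± 0.61 at the medium dose and -1.48 ± 0.63 at the high dose (edgeR, adjusted p = 0.383 at the high dose). Its slope over 100 mg/kg was -1.33 ± 0.58 (edgeR, adjusted p = 0.434), its mean over the doses -0.94 ± 0.48 (adjusted p = 0.560) and its adjusted p among the doses 0.986. Without control replicate 2, Slamf6 was at 0.12 at the medium dose, -0.81 at the high dose and -0.27 for the mean of the doses. Without control replicate 3 it was at -0.92, -1.85 and -1.31 in the same order.

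Slamf7, a self-binding receptor of NK cells, plasma cells and activated macrophages, was the one member fitted above control at every dose. Its counts were 6, 32 and 4 in the controls, 12, 16 and 17 at the low dose, 28, 21 and 14 at the medium dose and 42, 6 and 16 at the high dose. Control replicate 2, at 0.483 CPM, was above all 9 treated libraries (0.141 to 0.468 CPM), and the other controls, at 0.151 and 0.0892 CPM, were low. The log2 fold change for the mean of the doses was 0.35 ± 0.60 (edgeR, adjusted p = 0.869). It was 1.38 without control replicate 2 and -0.04 without control replicate 3, so the direction depended on single control libraries.

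Cd84, a self-binding receptor of macrophages, platelets and B cells, had the most counts of the family. Its counts were 94, 154 and 31 in the controls, 40, 36 and 179 at the low dose, 129, 101 and 106 at the medium dose and 243, 59 and 98 at the high dose. The controls, at 2.37, 2.33 and 0.691 CPM, spanned all 9 treated libraries (1.01 to 2.25 CPM). The log2 fold change for the mean of the doses was -0.11 ± 0.35 (edgeR, adjusted p = 0.928). It was 0.12 without control replicate 1 and 0.12 without control replicate 2.

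Ly9, a self-binding receptor of T and B cells, had counts of 30, 54 and 24 in the controls and 31, 14 and 47 at the low dose. It had 32, 36 and 40 counts at the medium dose and 105, 16 and 27 at the high dose. Scaled, the controls (0.535 to 0.816 CPM) lay within the range of the treated libraries (0.376 to 1.21 CPM). The log2 fold change for the mean of the doses was -0.20 ± 0.41 (edgeR, adjusted p = 0.893). It was -0.07 without control replicate 2 and -0.36 without control replicate 3. The gene overlaps Cd244a on the opposite strand (at most 36 counts). Since the strand setting of the counting is not given, reads from any stretch that both genes share cannot be told apart. Whether their exons overlap was not tested.

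Slamf1, a self-binding receptor of activated T cells, dendritic cells and macrophages, was the least abundant member. It had counts of 0, 19 and 7 in the controls, 0, 0 and 4 at the low dose, 0, 11 and 12 at the medium dose and 0, 0 and 0 at the high dose. It was thus listed at 0 in 7 of 12 libraries, 1 of them a control, and no fold is given. High replicate 1, the library with the most counts outside mitochondrial genes, was among those listed at 0.

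Most leukocyte lists were below control too, with recruited macrophage genes at the high dose the other way. All 10 pan-leukocyte genes (such as Ptprc, the CD45 antigen) were below control for the mean of the doses. Their median log2 fold change was -0.58. Of the 10, 5 were lower at an unadjusted p under 0.05 (against 5.24% of all genes) and 0 were called. The summed level of the 10 was 44.2 to 97.0 CPM in the controls, 39.1 to 48.7 at the low dose, 39.8 to 45.7 at the medium dose and 40.8 to 59.4 at the high dose. In RNA from whole tissue, fewer cells of a type and less RNA per cell cannot be told apart. Kupffer cell genes summed to 73.4 to 172 CPM in the controls, 54.6 to 70.1 at the low dose, 60.3 to 71.1 at the medium dose and 78.1 to 98.1 at the high dose, with 9 of 11 lower for the mean of the doses.

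Recruited macrophage genes ranged from 18.8 to 40.9 CPM in the controls and from 19.8 to 74.0 CPM at the high dose, the highest value being that of high replicate 1. For the mean of the doses 6 of 11 were lower and 5 higher (median log2 fold change -0.03). At the high dose 7 of 11 were higher (median 0.64), 2 of them at an unadjusted p under 0.05. By that rule 1 of 11 was lower, and 1326 of all 16839 genes were higher. On the slope 9 of 11 were higher (median 0.72), 4 at an unadjusted p under 0.05, against 1097 of 16839 genes. Both low and medium libraries (20.2 to 30.1 and 16.3 to 23.6 CPM) were within or near the control range. T and NK cell genes summed to 4.46 to 11.7 CPM in the controls and 3.38 to 7.42 CPM over the treated libraries, with 13 of 17 lower. B and plasma cell genes, summed to 19.4 to 37.3 CPM in the controls and 7.05 to 15.7 CPM in the treated libraries, did not overlap, and 8 of 10 were lower. The mean log2 CPM of that list, centred per gene, did overlap, with the lowest control at 0.189 and the highest medium library at 0.242. Neutrophil genes, summed to 10.99 to 41.2 CPM against 4.94 to 9.39 CPM, did not overlap either, with 10 of 10 lower. Their centred mean did overlap, with the lowest control at 0.345 and the highest high-dose library at 0.571. Dendritic cell genes were at 6.44 to 11.4 against 5.16 to 10.6 CPM, with 4 of 7 lower for the mean and 3 of 7 at the medium dose.

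Hepatocyte genes were fitted above control, opposite to most leukocyte lists. All 10 were above control at each dose, with a median log2 fold change of 0.63 (low), 0.66 (medium), 1.16 (high) and 0.74 (mean of the doses). For the mean, 1 of 10 was higher at an unadjusted p under 0.05 (against 4.13% of all genes). The summed level of the 10 was 6521 to 12860 CPM in the controls. It was 27700 to 49370 CPM in low replicate 3, medium replicate 1, high replicate 1 and high replicate 3, and 6026 to 10330 CPM in the other treated libraries. Those 4 libraries also had the lowest mitochondrial shares, from 30.3% to 48.3%, against 55.5% to 64.7% in the others. None of the lists had a called gene, and their part in the members' values was not tested beyond the ratios and correlations that follow.

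To set the members against the leukocyte RNA of the same library, each was expressed per 1000 counts of the 10 pan-leukocyte genes, a ratio that does not depend on library scaling. In these terms Slamf8 was at 12.9, 8.41 and 7.06 in the controls and at 0, 3.84 and 5.60 at the medium dose. All 3 medium libraries were thus below all 3 controls, 1 of them listed at 0. That pattern was shown by 0.6% of all genes in this ratio and by 6.38% in CPM. The pan-leukocyte genes were themselves below control at the medium dose (median log2 fold change -0.78), and 26.9% of genes lay above all controls in the ratio. The group means of Slamf8 were 9.46 ± 3.06 (SD, n = 3) in controls and 3.15 ± 2.87 at the medium dose (two-sided exact permutation p = 0.1, the smallest that 3 against 3 allows). Over all 9 treated libraries the mean was 5.61 ± 3.22 (exact permutation p = 0.105, smallest possible 0.00455, adjusted p = 0.478), and 12.1 in high replicate 2 lay inside the control range. Per 1000 counts of Ptprc alone Slamf8 was at 55.5 ± 19.2 in the controls, 18.5 ± 17.1 at the medium dose, 65.0 ± 41.1 at the high dose and 44.5 ± 30.8 over the treated libraries (exact permutation p = 0.568 for the 9 against 3, adjusted p = 0.827). Per 1000000 counts outside mitochondrial genes and copies it was at 3.11 ± 1.45 and 1.07 ± 0.639 (exact permutation p = 0.0136, adjusted p = 0.437), so the size of the difference varied with the denominator.

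Slamf7 per 1000 pan-leukocyte counts was 2.35, 4.99 and 2.02 in the controls, and the 9 treated libraries ran from 3.45 to 9.93. Its mean was 3.12 ± 1.63 in the controls and 6.97 ± 2.39 over the treated libraries (exact permutation p = 0.0318, adjusted p = 0.478). Of the 9 treated libraries, 7 were above the highest control. Per 1000 counts of Ptprc alone the controls were at 13.7, 21.8 and 15.6 and the treated libraries at 28.8 to 93.8, so that all 9 were above all controls (exact permutation p = 0.0318, adjusted p = 0.457). That pattern was shown by 6.37% of all genes. Ptprc itself had a log2 fold change of -1.05 ± 0.30 for the mean of the doses (edgeR, adjusted p = 0.311). Per 1000000 counts outside mitochondrial genes and copies, Slamf7 was at 1.20 ± 1.14 in the controls and 1.34 ± 0.571 over the treated libraries (exact permutation p = 0.741).

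Cd84 per 1000 pan-leukocyte counts was 36.8, 24.0 and 15.6 in the controls and 43.7, 38.8 and 39.6 at the medium dose. These groups did not overlap, with means of 25.5 ± 10.6 and 40.7 ± 2.63 (SD, n = 3; exact permutation p = 0.1), as was the case for 26.9% of all genes in the higher direction. Over all treated libraries Cd84 had a mean of 37.0 ± 7.85 (exact permutation p = 0.0727, adjusted p = 0.478). Slamf7 at the medium dose, 7.59 ± 2.17 (exact permutation p = 0.1), also lay above all its controls, as part of the same 26.9%. Slamf9 was at 10.1, 8.63 and 11.5 at the high dose and 6.65, 3.12 and 8.58 in the controls, with no overlap (means 10.1 ± 1.43 and 6.11 ± 2.77, exact permutation p = 0.1), as was the case for 16.6% of all genes.

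Cd48 in this ratio was 25.7 ± 6.39 in the controls and 23.3 ± 6.46 over the 9 treated libraries (exact permutation p = 0.6), Slamf6 was 13.1 ± 4.11 and 12.1 ± 5.59 (exact permutation p = 0.773), and Ly9 was 10.8 ± 2.03 and 13.5 ± 5.06 (exact permutation p = 0.414). Across the 32 comparisons of members in this ratio, 0 had an adjusted p under 0.05. The plot of these ratios shows the members side by side.

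**Figure D4:**
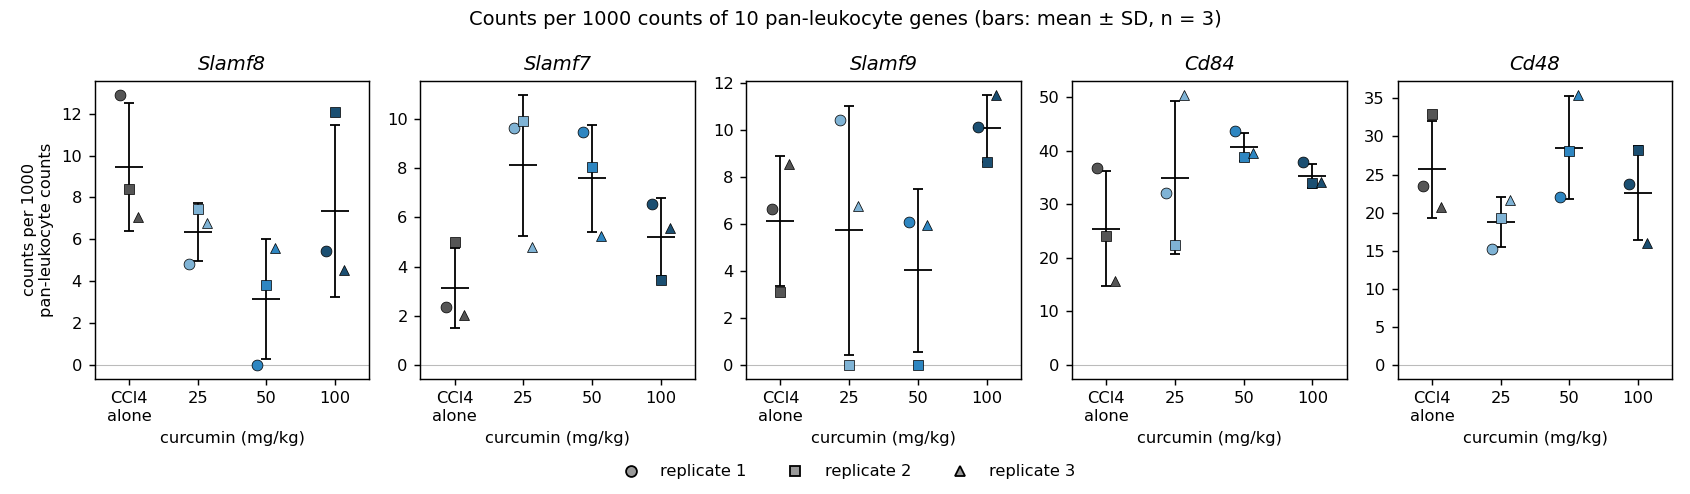
Counts of 5 members per 1000 counts of 10 pan-leukocyte genes of the same library, by curcumin dose in mg/kg, with the group mean and SD (n = 3) and symbols for the replicate. The medium libraries of Slamf8, at 0 to 5.60, lie below its controls, and those of Slamf7 and Cd84 lie above theirs.

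No pair of members passed the test for varying together over the 12 libraries. Pearson's r of log2 CPM was 0.457 for Slamf8 with Cd48 (Spearman's rho 0.497, permutation p = 0.132), 0.574 for Slamf6 with Cd48 (rho 0.497, permutation p = 0.0498) and 0.503 for Cd48 with Cd84 (rho 0.539, permutation p = 0.101). Each had an adjusted permutation p of 0.677 over the 21 pairs of 7 members, and 0 pairs had one under 0.05. Without the 2 libraries farthest from the median of the first gene, r was 0.691, 0.0925 and 0.474.

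By Pearson's r, Cd48 varied most with the pan-leukocyte, Kupffer cell, B and plasma cell, neutrophil and dendritic cell lists over the 12 libraries. Cd48 had a lower r when 2 libraries were left out. Its r with the pan-leukocyte score (the mean centred log2 CPM of the list) was 0.788 (rho 0.371, permutation p = 0.00642, adjusted p = 0.0930), and 0.217 without the 2 libraries farthest from the median score. With the Kupffer cell, B and plasma cell and neutrophil scores its r was 0.779, 0.761 and 0.763 (rho 0.462, 0.699 and 0.483, permutation p = 0.00756, 0.00669 and 0.0083, each adjusted to 0.0930), and 0.292, 0.392 and 0.241 without 2 libraries. Leaving out the libraries with the most extreme scores narrows the range and by itself lowers r, so the fall cannot show whether the relations rest on them. For deviations from group means, r was 0.755 with the pan-leukocyte, 0.852 with the Kupffer cell, 0.581 with the B and plasma cell and 0.640 with the neutrophil score.

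Slamf8 had an r of 0.524 with the pan-leukocyte score (rho 0.476, permutation p = 0.0908, adjusted p = 0.318; 0.0746 without 2 libraries) and of 0.562 with the Kupffer cell score (rho 0.532, permutation p = 0.0733, adjusted p = 0.293; 0.462 without 2). With the mitochondrial share its r was 0.291 (rho 0.413, permutation p = 0.355, adjusted p = 0.568; 0.508 without 2). Slamf6 had an r of 0.670 with the mitochondrial share (rho 0.434, permutation p = 0.0159, adjusted p = 0.136; 0.460 without 2) and of 0.738 with the B and plasma cell score (rho 0.615, permutation p = 0.00556, adjusted p = 0.0930; 0.346 without 2). Cd84 had an r of 0.667 with the T and NK cell score (rho 0.811, permutation p = 0.0194, adjusted p = 0.136; 0.742 without 2). It stood above Cd48 there (0.610) and with the recruited macrophage score (0.457 against 0.438). Slamf9 had an r of 0.521 with the Kupffer cell score (permutation p = 0.07915, adjusted p = 0.2955), and 0.720 without 2. Its rho was 0.746 (permutation p = 0.0069, adjusted p = 0.193). By rank with the pan-leukocyte score, every member but Slamf7 (0.259) stood above Cd48 (0.371), with Slamf9 highest (0.634). Of 56 such relations (7 members with 8 measures), 0 had an adjusted p under 0.05.

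The genes whose log2 CPM followed Slamf8 most closely over the 12 libraries, out of 9053 genes whose log2 CPM averaged 1 or more, were Ap1ar (r = 0.860), E2f3 (0.859), Ncf1 (0.842), Mthfd2l (0.834) and Camk2d (0.826). Ncf1 encodes a cytosolic subunit of the phagocyte NADPH oxidase. It had 18 counts in medium replicate 1, its lowest library, and that library was listed at 0 for Slamf8. For Cd48 they included Syk (0.884), a kinase of immune receptor signalling, Csf2rb (0.883), a receptor chain of myeloid cells, Rasa4 (0.882) and Itgal (0.868), an integrin chain of leukocytes. These genes have the highest of 9053 coefficients per member and are given as a description.

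The partners of the family were measured unevenly. The adaptor gene Sh2d1b2 was listed at 0 in all 12 libraries, Sh2d1a in 7 (at most 17 counts) and Sh2d1b1 in 6 (at most 14 counts), and these 3 were not tested. Cd2, a binding partner of Cd48 on T cells, had 25 to 111 counts, and Cd244a, its partner on NK cells, had 0 to 36. Of 15 tested partner and signalling genes, 12 were below control for the mean of the doses (median log2 fold change -0.48). Of the 15, 5 had an unadjusted p under 0.05, all lower (against 5.24% of all genes), and 0 were called.

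The Src-family kinase gene Fgr had counts of 75, 497 and 47 in the controls and 27 to 149 over the treated libraries, and a log2 fold change of -1.85 ± 0.45 for the mean of the doses (edgeR, adjusted p = 0.256). Control replicate 2 stood far above the other controls for Fgr, and the ranges overlapped. Fyn, the kinase that SAP recruits, stood at -0.70 ± 0.20 (edgeR, adjusted p = 0.317), Ptpn6, a phosphatase that binds SLAM tails, at -0.79 ± 0.26 (adjusted p = 0.345), and Vav1, an exchange factor downstream of Fyn, at -0.83 ± 0.28 (adjusted p = 0.378). Control replicate 2 also had the highest control counts of Fyn (505), Ptpn6 (941) and Vav1 (347).

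The genes of the phagocyte NADPH oxidase, the enzyme that Slamf8 is known to restrain, were all 6 below control for the mean of the doses, with a median log2 fold change of -0.85. Of the 6, 3 had an unadjusted p under 0.05, all lower (against 5.24% of all genes), and 0 were called. Ncf4 had counts of 115, 479 and 113 in the controls and of 61 to 209 in the treated libraries, and a log2 fold change of -1.06 ± 0.29 (edgeR, adjusted p = 0.306). Rac2 stood at -0.78 ± 0.24 (edgeR, adjusted p = 0.327) and Ncf1 at -0.91 ± 0.46 (adjusted p = 0.561). In the controls the counts were 314, 640 and 179 for Rac2 and 104, 351 and 131 for Ncf1. Control replicate 2, the deepest control library, was the highest control for Ncf4, Rac2 and Ncf1. Its part in their values was not tested.

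Of 24 tested genes of the TNF and NF-kB list, 20 were below control for the mean of the doses, with a median log2 fold change of -0.35. At an unadjusted p of 0.05, 9 were lower (against 5.24% of all genes) and 1 was higher (against 4.13%), and 0 were called. Relb, an NF-kB subunit, had counts of 133, 369 and 138 in the controls and 44 to 213 in the treated libraries, with a log2 fold change of -1.04 ± 0.22 (edgeR, adjusted p = 0.235). Icam1, an adhesion molecule induced by TNF, stood at -1.05 ± 0.25 (edgeR, adjusted p = 0.25). The cytokine gene Il1b stood at -1.39 ± 0.38 (edgeR, adjusted p = 0.306) and the chemokine gene Ccl2 at -2.16 ± 0.60 (adjusted p = 0.311). Control counts (replicates 1, 2 and 3) were 455, 1841 and 634 for Icam1, 58, 237 and 39 for Il1b, and 15, 178 and 78 for Ccl2. Control replicate 2, the deepest control library, was thus the highest control for Relb and these 3 genes. Its part in their values was not tested.

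Tnf itself had counts of 27, 97 and 13 in the controls, 3, 13 and 17 at the low dose, 17, 8 and 8 at the medium dose and 36, 32 and 22 at the high dose. Its log2 fold change was -1.86 ± 0.69 at the low dose, -2.25 ± 0.69 at the medium dose and -0.79 ± 0.66 at the high dose (edgeR, adjusted p = 0.800, 0.642 and 0.602), and -1.63 ± 0.50 for the mean (adjusted p = 0.327). Control replicate 2 held the highest count of Tnf (97), and the part of that library in these values was not tested. The NF-kB subunit genes Nfkb1 and Rela and the inhibitor gene Nfkbia stood at -0.34 ± 0.19, -0.18 ± 0.21 and -0.01 ± 0.18 for the mean of the doses (edgeR, adjusted p = 0.579, 0.788 and 0.992).

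Protein-coding genes that the annotation places between the members on chromosome 1 were given as a measure of the region. Of 19 such genes 14 were tested, and 9 of them were below control for the mean of the doses (median log2 fold change -0.04). Of the 14, 2 had an unadjusted p under 0.05, both lower (against 5.24% of all genes), and 0 were called. Among the members, Slamf7, Cd48 and Slamf6 also overlap annotated RNA genes (Gm37787, Gm37010 and Gm37065), which had at most 3, 4 and 0 counts in a library.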

How the data were processed

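RNA of 12 livers was measured, 1 library per mouse, in 4 labelled groups of 3. The authors deposited a count table with raw whole numbers per Ensembl ID, and 0 of its columns lacked a label. The submitters' processing notes name mm39 as the build and StringTie 2.2.1, STAR 2.7.10b and fastp 0.23.4 as tools. The counting step, its strand setting and its treatment of multiply mapped reads are not given in the sources used here. Symbols came from GENCODE M21 (52073 of 56923 IDs), which is on another build, so coordinates are printed for RefSeq promoters only. The labels call the samples biological replicates, and p-values of the group comparisons set a difference against the spread between these mice. Effects of cage cannot be separated, since which cages held which group is not stated.

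The members and gene lists were chosen with earlier results of these data known. Genes passing filterByExpr (16839, all 8 members among them) were tested in R 4.3.3 with edgeR 4.0.16 (TMM, robust quasi-likelihood fit of all 12 libraries, glmQLFTest), with Benjamini-Hochberg adjustment over all of them and a threshold of 0.05. DESeq2 1.42.0 and limma 3.58.1 were alternatives. How often the gene test finds a change at the low counts of the members was not tested. Exact and 100000-resample permutation tests were two-sided (SciPy 1.17.1). Log2 CPM for correlations used a prior count of 2. A nuclear copy of a mitochondrial gene had at least 95% identity over at least 80% of its length (BLAST+ 2.17.0). No 2 libraries of a group agreed within sampling noise (chi-square per degree of freedom 42.0 or more). All 8 members are described. Of the partner, oxidase and TNF lists the 4 genes with the smallest p for the mean of the doses are named, plus Tnf, Nfkb1, Rela and Nfkbia, and for Slamf8 and Cd48 the 5 genes most correlated with each. Genes that meet this rule but are not named are not reported here.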

Additional observations from a re-analysis of the deposited data

How the results depend on the processing

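No member was called by edgeR, DESeq2 or limma under any of the alternatives run, and Slamf8 and Cd48 were fitted below control at each dose under all of them. Over all genes, edgeR called 0 in each comparison, whereas DESeq2 called 42 (low), 89 (medium), 172 (high), 165 (mean of the doses), 67 (slope) and 16 (among the doses), and limma with library weights called 35 (medium), 224 (high) and 66 (mean). Without a filter on low counts edgeR called 3 genes for the mean. Leaving out 1 library gave 0 to 2 genes at the low dose, 0 to 1 for the mean and 0 to 4 among the doses (2 without low replicate 3, 4 without high replicate 2). The cause was not tested.

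Scaling by library totals moved the median log2 fold change of all genes to 0.47 (medium), 0.71 (high) and 0.42 (mean). With it the mean-of-doses values of Slamf9 (0.067), Cd84 (0.29) and Ly9 (0.19) changed sign but stayed under that median. Totals without mitochondrial genes moved it to -0.08, -0.24 and -0.16, and 6 relations with cell type scores or the mitochondrial share then had an adjusted p under 0.05.

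Without control replicate 2, Slamf6 at the medium dose was 0.12 (range over single libraries left out -0.92 to 0.12). For the mean of the doses the range was -0.039 to 1.38 for Slamf7 and -0.50 to 0.12 for Cd84. An alternative chosen after seeing the data left out control replicate 2 and high replicate 1 together: edgeR then called 1 gene for the mean, Slamf6 at the medium dose was 0.11 and Cd84 for the mean was 0.046. Cd84 per 1000000 counts outside mitochondrial genes and copies was lower than control, by a difference of -0.936 at the medium dose and -1.70 over all doses.

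With the replicate number as a block, edgeR called 0 genes in each comparison and Slamf8 at the medium dose was -2.40. Same-numbered libraries did not deviate together (correlations -0.257 to 0.445), and the best match of a library in another group had its number in 11 of 36 cases. Depth limits every member: most counts were under 100.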
